A study of Oryza sativa Japonica Group with 8 samples.

Results

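The genes described here are those whose transcript level differed between red light and darkness in the same direction in 2 kinds of rice seedling, wild type and a line set with a permanently active red light receptor. Of 17905 genes on the array, 321 met the rule, 214 of them higher in red light in both genotypes and 107 lower in both. The rule took, for each gene, the probe set with the highest mean log2 intensity. It asked for a difference between the red light and dark group means of at least 0.7 on the log2 scale in wild type and in OsYHB, in the same direction, with no overlap of the red light and dark arrays within either genotype. By name it left out 56 genes, including PORA and genes named HSP, HAK or WRKY, 7 of which met the thresholds. The genes were thus chosen by their measured red light responses, which are given as a description, with no test, and the words higher and lower in red light refer to the rule.

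All seedlings were of the cultivar Nipponbare, 5 days old, grown at 28 °C on MS medium, and above-ground tissue was taken. Wild type (WT) had 2 arrays from darkness and 2 from continuous red light at an irradiance of 50 µmol m-2 s-1 (Rc50). Ubi::OsYHB/Nip seedlings carry OsPHYB-Y283H, an allele of phytochrome B that is active without light, driven by the maize Ubiquitin promoter. They also had 2 arrays in each condition, and in each condition replicate 1 was the single-insertion line 1, with 41-fold overexpression, and replicate 2 was line 9, with 23-fold overexpression. Each OsYHB line thus had 1 array per condition. The labels call the arrays biological replicates, and the number of seedlings pooled in each is not known here. The deposited values are intensities without a detection call. How background changes a dim gene's difference is not known here, since the background model is not given.

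Phytochromes are photoreceptors that red light converts to an active form, which enters the nucleus and removes repressors of light-responsive genes. In grass seedlings this ends growth in the dark form and starts greening. A receptor that is active without light can set off much of this programme in darkness. Several of the named genes belong to diterpenoid phytoalexin synthesis, in which copalyl diphosphate synthases and kaurene synthase-like enzymes build the carbon skeletons of antimicrobial compounds and cytochrome P450 enzymes oxidise them. Others move ammonium, nitrate, phosphate, sugars or metals across membranes.

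The OsYHB array of line 9 in red light stood apart among the higher genes. In red light line 9 lay above line 1 for 194 of the 214 (90.7%, beside 53.6% of all eligible genes). The median difference was 0.75 on the log2 scale, and it was at least 1 for 63 of the 214 (29.4%), beside 1.27% of all eligible genes. Line 1 lay at least 1 above line 9 for 2 (0.935%, beside 0.202%). The median red minus dark difference was 0.70 in line 1 and 1.51 in line 9. Line 9 alone passed 0.7 for 104 genes, line 1 alone for 9, and both lines for 101. Without the line 9 red light array 127 of the 214 still met the rule, and the total that met it was 139; without the line 1 red light array 212 of the 214 met it and the total was 321. In wild-type red light replicate 1 lay above replicate 2 for 184 of the 214, by at least 1 for 21 of them (9.81%), beside 0.443% of all eligible genes. The median of replicate 2 minus replicate 1 was -0.46 among the 214 and -0.02 over all eligible genes. The rule used these arrays, and a high red light value in either line helps a gene to meet it. The shares of all eligible genes are thus no like comparison, and the spread is given as a description. Among 1301 genes higher by the same thresholds in wild type alone, line 9 lay above line 1 in red light for 47.7%. It did so by at least 1 for 3.69%.

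The lower genes did not show this split, with medians of -0.96 in line 1 and -0.99 in line 9, and in red light line 9 lay at least 1 above line 1 for 3 genes and at least 1 below it for 1. The fall in line 1 passed 0.7 for 86 of 107 genes and the fall in line 9 for 85. Without the line 9 red light array 97 of the 107 still met the rule.

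**Figure D1:**
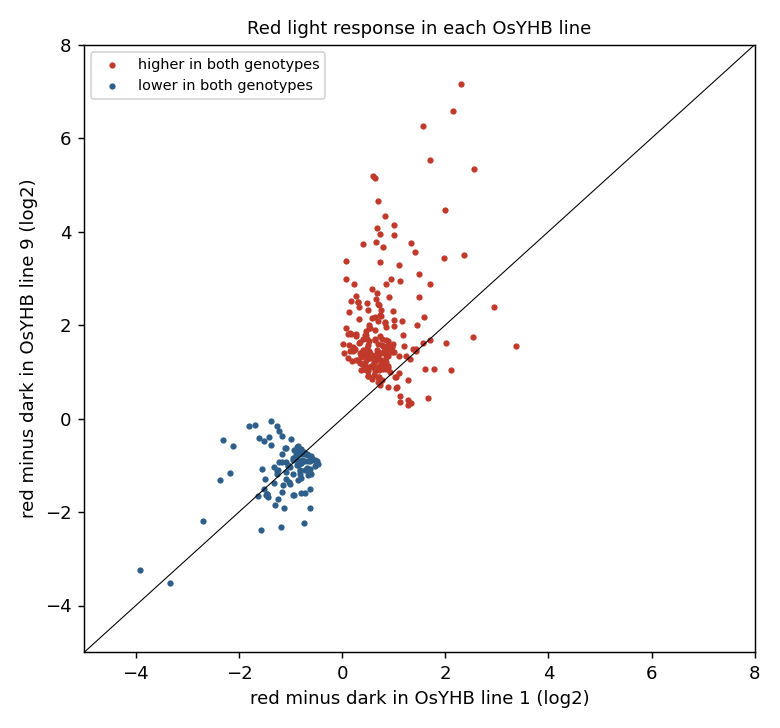
Each point is 1 of the 321 genes, with the red minus dark difference of OsYHB line 1 on the horizontal axis and of line 9 on the vertical axis, both log2, and the line of equal values. The genes higher in red light lie mostly above the line, up to 7.17 in line 9, and the lower genes lie on both sides of it.

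By the same thresholds applied to each genotype alone, 1515 genes were higher and 1124 lower in red light in wild type, and 510 were higher and 296 lower in OsYHB. The genes that met the rule in both were 1.2% of the 17849 eligible genes for the higher direction and 0.599% for the lower. Opposite directions occurred as well, with 38 genes higher in wild type and lower in OsYHB and 33 the other way round. A limma fit over all 57258 probe sets called few of the light differences in OsYHB. Per gene it called 0 higher (0%) and 3 lower (0.0168%) in OsYHB, against 8.98% higher and 8.13% lower in wild type. Over all probe sets the fit called 2 higher and 4 lower in OsYHB, while 8365 had an unadjusted p under 0.05. The rule used these contrasts, so nothing is read from the counts. The membership of these genes in OsYHB rests on 2 arrays against 2 and on the thresholds of the rule, since 0 of the 214 higher genes and 1 of the 107 lower genes were called there.

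**Figure D2:**
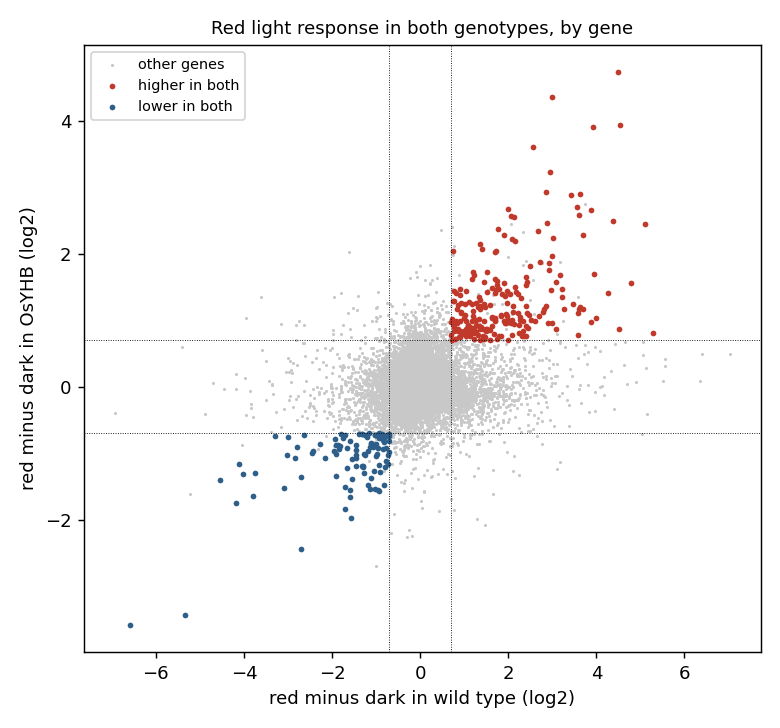
Each point is a gene, with the red minus dark difference in wild type on the horizontal axis and in OsYHB on the vertical axis, both log2, and dotted lines at 0.7 and -0.7. The 214 genes higher in both lie in the upper right corner and the 107 lower in both in the lower left, while the grey cloud of other genes, which includes those whose arrays overlap, is wide along the wild-type axis and narrow along the OsYHB axis.

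The size of the response was compared between genotypes, as a description. Among the 214 higher genes the median difference was 1.74 in wild type and 1.11 in OsYHB, and 162 of them (75.7%, beside 60.6% of all eligible genes) had the larger value in wild type. Among the 107 lower genes the medians were -1.28 and -0.96, and 80 (74.8%) had the larger size in wild type. Differences of at least 2 in both genotypes were reached by 22 higher and 3 lower genes. Just inside the thresholds lay LOC4329551 (1.59 in wild type and 0.70 in OsYHB) and LOC4336242 (1.99 and 0.70) among higher genes, and LOC4324375 (-0.93 and -0.70) and LOC4338253 (-0.70 and -0.74) among lower genes. Just outside were LOC4328218 (0.70 and 0.80) and LOC4343485 (1.61 and 0.70), with the smaller value below the threshold before rounding, and LOC4338125 (-0.82 and -0.70) and LOC4335061 (-1.18 and -0.70). Probe sets ending in _x_at or _s_at, which can match more than 1 transcript, made up 11.7% of the higher and 11.2% of the lower genes, beside 11.2% of all eligible genes. A further 38 genes on the higher side and 12 on the lower side passed both thresholds, but their arrays overlapped.

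Of the 214 higher genes 37 are listed under a gene name and not under an identifier alone, and the 25 of these with the largest smaller response are described. Of these 25, 6 encode enzymes known in diterpenoid phytoalexin synthesis, a grouping made after their values were seen. CPS2, an ent-copalyl diphosphate synthase gene of phytoalexin synthesis, had log2 intensities of 2.29 and 2.43 in wild-type darkness, 7.0 and 4.96 in wild-type red light, 2.38 and 2.17 in OsYHB darkness, and 2.98 (line 1) and 7.36 (line 9) in OsYHB red light. The groups did not overlap within a genotype, but the response was 0.60 in line 1 and 5.19 in line 9, so that nearly all of the OsYHB difference of 2.90 came from line 9. CYP71Z7, a P450 gene of the phytocassane branch, read 3.39 and 2.89 in wild-type darkness, 7.77 and 5.71 in wild-type red light, 2.68 and 3.14 in OsYHB darkness, and 3.51 and 7.47 in OsYHB red light. Its pattern over the arrays followed that of CPS2, with responses of 0.83 in line 1 and 4.33 in line 9.

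DTC1, also named KSL7, makes the cassadiene precursor of phytocassanes and read 3.15 and 3.05 in wild-type darkness, 5.51 and 4.62 in wild-type red light, 3.34 and 3.25 in OsYHB darkness, and 3.60 and 5.87 in OsYHB red light. The line 1 value in red light was only 0.26 above that in darkness. In the RefSeq gene order CPS2 and CYP71Z7 are adjacent, and DTC1 and the unnamed member LOC4329723 lie within 3 places of a neighbouring member in the same run. LOC4329723 had a difference of 3.42 in wild type, 0.64 in line 1 and 5.14 in line 9. In all, 21 pairs of members lay within 3 places of each other, 19 of them with the same direction. Where neighbours are copies of 1 gene they can share probe sequence, and the part of this in the values was not tested. CPS2, CYP71Z7 and DTC1 encode different enzymes.

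CPS4, the syn-copalyl diphosphate synthase gene that leads to momilactones, read 2.85 and 2.89 in wild-type darkness, 5.24 and 4.64 in wild-type red light, 2.56 and 2.89 in OsYHB darkness, and 3.22 and 6.66 in OsYHB red light. CYP701A8, a gene of the kaurene oxidase-like family (KOL4), read 4.31 and 4.83, 6.82 and 6.31, 2.58 and 2.89, and 3.28 and 7.53 in the same order. Its OsYHB line 1 array in red light lay below both wild-type dark arrays. KS10, also named KSL10, a kaurene synthase-like gene of the oryzalexin branch, read 3.42 and 3.54, 5.82 and 5.20, 3.71 and 3.61, and 4.40 and 5.70. In red light each of these 6 genes was higher in wild-type replicate 1 than in replicate 2 and higher in line 9 than in line 1. These orders were shared by most of the 214 higher genes, 184 for the replicates and 194 for the lines. For the replicates the share over all eligible genes was not counted.

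Genes of defence proteins are the next group. PBZ1, a pathogenesis-related protein gene first known for its induction by probenazole, read 8.03 and 6.76 in wild-type darkness, 10.17 and 9.77 in wild-type red light, 6.46 and 6.51 in OsYHB darkness, and 8.15 and 12.04 in OsYHB red light. The red light responses were 1.70 in line 1 and 5.53 in line 9. Cht2, a chitinase gene, read 4.99 and 4.54, 7.07 and 6.57, 4.15 and 4.25, and 5.15 and 8.38 in the same order, and another of its probe sets met the rule too (3.06 in wild type and 3.29 in OsYHB), while a dimmer one gave -0.67 and -0.09. Cht11, also listed as a chitinase gene, differed from Cht2 in darkness, where OsYHB (7.58 and 7.56) lay far above wild type (5.14 and 4.55). In red light Cht11 read 9.45 and 8.78 in wild type and 8.22 and 9.73 in OsYHB, so its response was 4.27 in wild type and 1.41 in OsYHB.

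The lipoxygenase genes CM-LOX1 and CM-LOX2 are neighbours in the genome and encode enzymes that oxidise linolenic acid. CM-LOX1 read 2.83 and 2.10 in wild-type darkness, 6.31 and 6.01 in wild-type red light, 4.61 and 4.76 in OsYHB darkness, and 6.09 and 7.85 in OsYHB red light, which makes it higher in OsYHB than in wild type in darkness without overlap. CM-LOX2 read 4.45 and 4.19, 5.53 and 5.80, 4.00 and 4.14, and 4.28 and 5.90, with a response of 0.28 in line 1 and 1.76 in line 9. The other probe sets of CM-LOX2 and of DTC1 had mean log2 intensities of 2.21 to 2.38 and did not follow. The peroxidase gene LOC4344277 had responses of 2.22 in wild type, 0.31 in line 1 and 2.49 in line 9, and CRK10, a cysteine-rich receptor-like kinase gene, 1.31, 0.89 and 1.51.

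A further group of the named higher genes encodes transporters and nitrogen enzymes. AMT3-3, an ammonium transporter gene, read 3.56 and 3.02 in wild-type darkness, 5.84 and 4.53 in wild-type red light, 3.75 and 3.49 in OsYHB darkness, and 5.45 and 6.37 in OsYHB red light. AMT1, which encodes the ammonium transporter AMT1;1, read 7.38 and 6.83, 9.61 and 9.28, 8.26 and 8.57, and 9.16 and 9.65 in the same order. For AMT1 both lines responded alike (0.90 in line 1 and 1.08 in line 9), and OsYHB darkness lay between wild-type darkness and wild-type red light. A second, dimmer AMT1 probe set gave 0.79 in wild type and 0.01 in OsYHB. NAR2.2, a partner protein of high-affinity nitrate transporters, had responses of 1.20 in wild type and 1.06 in OsYHB, and ALN, the allantoinase that opens the ring of the nitrogen store allantoin, 1.47 and 1.20.

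OsPht1;1, a phosphate transporter gene, read 7.41 and 6.78 in wild-type darkness, 9.05 and 8.41 in wild-type red light, 7.53 and 7.13 in OsYHB darkness, and 7.92 and 8.83 in OsYHB red light. A second OsPht1;1 probe set gave 0.75 in wild type and 0.26 in OsYHB and did not meet the rule. MtN3-like, also named SWEET2B and of the SWEET family of sugar transporters, read 6.75 and 6.56, 9.07 and 8.79, 7.99 and 7.91, and 8.74 and 9.16, and another of its probe sets met the rule as well (2.52 in wild type and 1.03 in OsYHB). COPT1, a copper transporter gene, read 8.30 and 7.46, 8.87 and 8.74, 6.44 and 6.13, and 7.25 and 7.57. All OsYHB arrays of COPT1 except line 9 in red light lay below every wild-type array, so the light response of 1.13 in OsYHB started from a lower level. The yellow stripe-like gene osysl12 had responses of 1.03 and 1.08, and ABCG44, an ABC transporter gene, of 1.91 and 1.56.

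Of 9 root marker genes 3 were called higher in wild-type red light and none in OsYHB. Their summed intensity was 1254 and 910.4 in wild-type darkness, 1449 and 1967 in wild-type red light, 791.6 and 862.2 in OsYHB darkness, and 717.9 and 711.3 in OsYHB red light. The 3 were NAS1, NAS2 and IRT2. The root patterning genes OsGRAS-38 (SHR1) and OsSCR1 and the Casparian strip gene OsCASP1 were not called. Nor were the iron transporter gene IRT1 and the silicon transporter genes Lsi1 and Lsi2. Lsi2 had a log2 intensity of 2.17 to 4.02 and OsCASP1 of 3.09 to 3.72. The lowest value of any eligible gene was 1.54, and without a detection call such dim genes cannot be said to be expressed. The OsYHB sum rested mostly on its brightest gene, Lsi1, with log2 intensities of 9.15 and 9.33 in darkness and 8.88 and 8.90 in red light. OsGRAS-38 and OsSCR1 differed in OsYHB by 0.26 and 0.43, red minus dark. In wild type NAS1 and NAS2 differed by 4.70 and 4.09, while Lsi1 differed by -0.65. The sums thus follow a few bright genes. AMT1, AMT3-3, NAR2.2 and OsPht1;1 were higher in red light in both genotypes by the rule, and the part of root tissue in this was not tested. Fewer cells of a type and less RNA per cell cannot be told apart in such samples.

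The summed intensity of 3 green leaf markers was 21518 and 22686 in wild-type darkness and between 36930 and 39860 in the other 6 arrays. The summed intensity of 8 seed storage and embryo markers was 2048 and 1657 in wild-type darkness and between 1228 and 1566 elsewhere. The higher sums in wild-type darkness followed PXG, with log2 intensities of 10.22 and 9.50 there and 7.13 to 7.75 elsewhere. GLB1 went the other way, with 9.04 and 9.44 there and 9.52 to 10.13 elsewhere. The median red minus dark difference of the 8 in wild type was 0.05. Of the leaf markers 2 were called higher in wild-type red light, of the seed markers 2 were called lower, and none was called in OsYHB. The 2 seed markers were PXG and the dim gene OsVP1, with log2 intensities of 2.66 to 3.19 in wild type. In OsYHB the leaf sum was a little lower in red light than in darkness, and the seed sums of darkness and red light overlapped.

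Other named genes spanned several functions. BURP16, a gene of the BURP domain family, read 7.58 and 6.97 in wild-type darkness, 11.96 and 12.17 in wild-type red light, 10.49 and 8.78 in OsYHB darkness, and 10.73 and 11.65 in OsYHB red light. Its lines differed in darkness, and the response was 0.24 in line 1 and 2.87 in line 9. CCD8A, of the carotenoid cleavage dioxygenase family that makes strigolactone precursors, had responses of 1.33 and 1.22, and OsSTLP3 of 1.04 and 1.44. The 12 further named higher genes had responses of 0.70 to 2.41 in wild type and 0.71 to 2.04 in OsYHB. Of the unnamed higher genes the largest smaller responses were those of LOC4325422 (4.48 in wild type, 2.30 in line 1 and 7.17 in line 9) and LOC4350133 (4.54, 2.55 and 5.33).

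**Figure D3:**
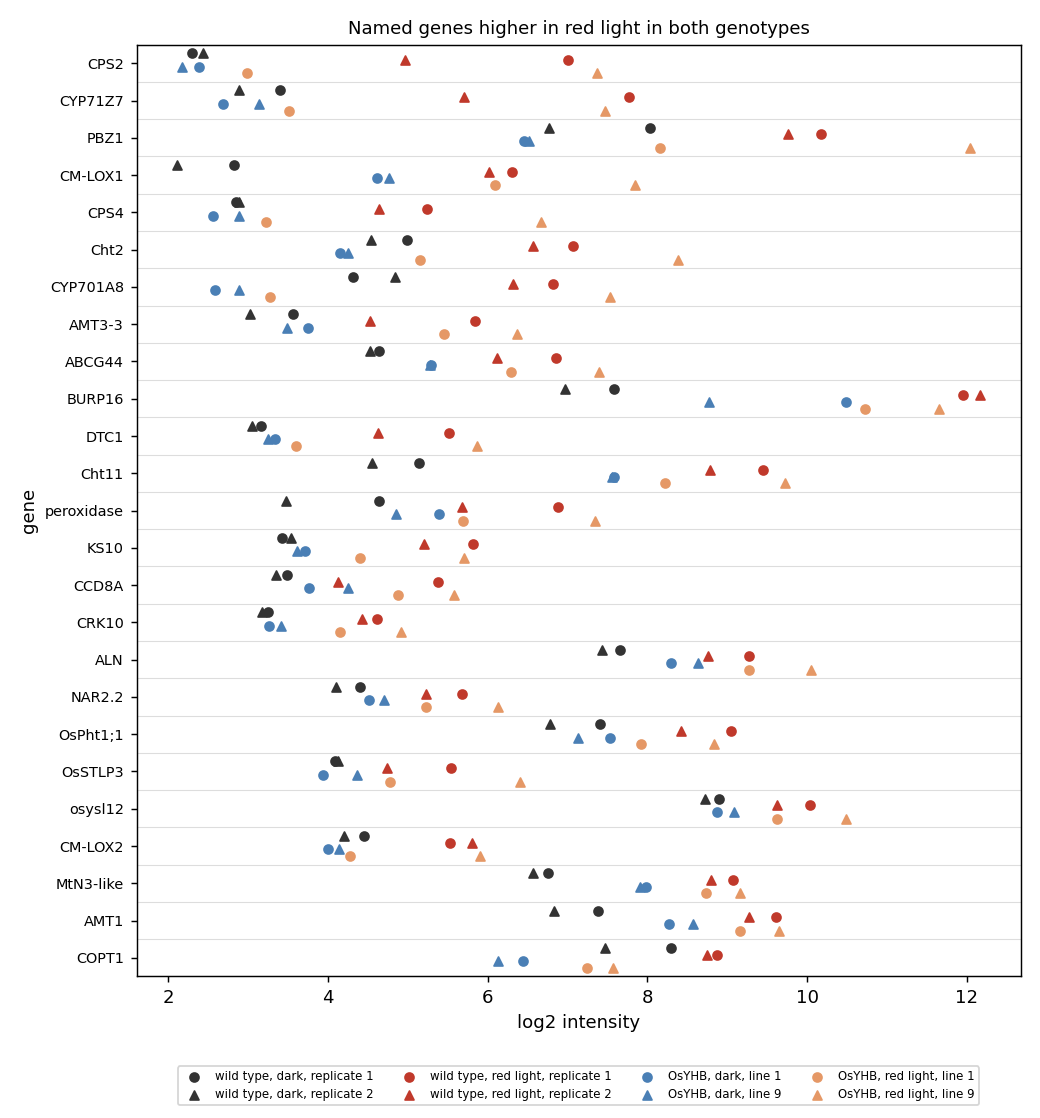
Log2 intensity on the horizontal axis of the 25 named genes with the largest smaller response among those higher in red light, with 1 symbol per array. For CPS2 the line 9 red light triangle stands at 7.36 and the line 1 red light circle at 2.98, next to the dark arrays, while for AMT1 both lie above 9.

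All 15 named genes among the 107 lower ones are described. OsPMEI8, a pectin methylesterase inhibitor gene, read 10.93 and 11.42 in wild-type darkness, 6.84 and 7.16 in wild-type red light, 7.84 and 8.52 in OsYHB darkness, and 6.65 and 6.21 in OsYHB red light. AOS4, of the allene oxide synthase family on the way to jasmonate, read 11.32 and 11.15, 7.85 and 7.04, 7.51 and 7.30, and 5.89 and 5.65 in the same order. For both genes OsYHB darkness lay far below wild-type darkness, and red light gave a further difference in OsYHB, of -1.75 for OsPMEI8 and -1.64 for AOS4. JAZ13, a gene of the JAZ family of jasmonate signalling repressors, had responses of -1.80 in wild type, -1.27 in line 1 and -0.15 in line 9.

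BGLU30, a beta-glucosidase gene, read 12.99 and 12.64 in wild-type darkness, 11.10 and 10.63 in wild-type red light, 11.23 and 11.28 in OsYHB darkness, and 10.40 and 10.18 in OsYHB red light, and another of its probe sets met the rule (-1.43 in wild type and -0.87 in OsYHB). OsPP2C30, of the protein phosphatase 2C family that holds back abscisic acid signalling, read 8.23 and 7.70, 5.69 and 6.53, 5.99 and 6.52, and 5.34 and 5.31. MFT1, of the phosphatidylethanolamine-binding family that also holds the flowering signal FT, read 7.65 and 7.06, 5.06 and 5.77, 5.27 and 5.29, and 4.62 and 4.38. In these 3 genes OsYHB darkness lay within or just above the wild-type red light arrays, and OsYHB red light was the lowest group.

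OsC3H60, also named U2AF35A after the small subunit of a splicing factor, read 10.01 and 9.91 in wild-type darkness, 8.59 and 9.12 in wild-type red light, 9.11 and 9.25 in OsYHB darkness, and 7.94 and 7.68 in OsYHB red light. Its response was larger in OsYHB (-1.37) than in wild type (-1.11). ME6, an NADP-malic enzyme gene, had responses of -1.03 and -0.72, the apyrase gene ADPase (APY3) of -0.83 and -0.93, and BG1 of -0.84 and -0.80. OsPIN4, of the PIN family of auxin efflux carriers, had -1.67 and -1.22 with both lines near each other (-1.26 and -1.18), whereas OsRAA1 had -2.71 in wild type, -2.12 in line 1 and -0.60 in line 9.

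In the remaining named lower genes the dark arrays of the genotypes overlapped. GRXC15, a glutaredoxin gene, read 9.73 and 10.19 in wild-type darkness, 8.67 and 9.34 in wild-type red light, 9.96 and 9.87 in OsYHB darkness, and 9.11 and 8.87 in OsYHB red light. OsVIT1.2, a vacuolar iron transporter gene, read 10.62 and 9.63, 9.26 and 8.10, 9.84 and 9.97, and 8.68 and 9.22. OsYAB3, a YABBY transcription factor gene, had responses of -0.78 in wild type, -1.70 in line 1 and -0.14 in line 9. The unnamed lower genes with the largest smaller responses, LOC9268400 and LOC4350344, differed by -6.58 and -5.35 in wild type and by -3.58 and -3.43 in OsYHB.

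**Figure D4:**
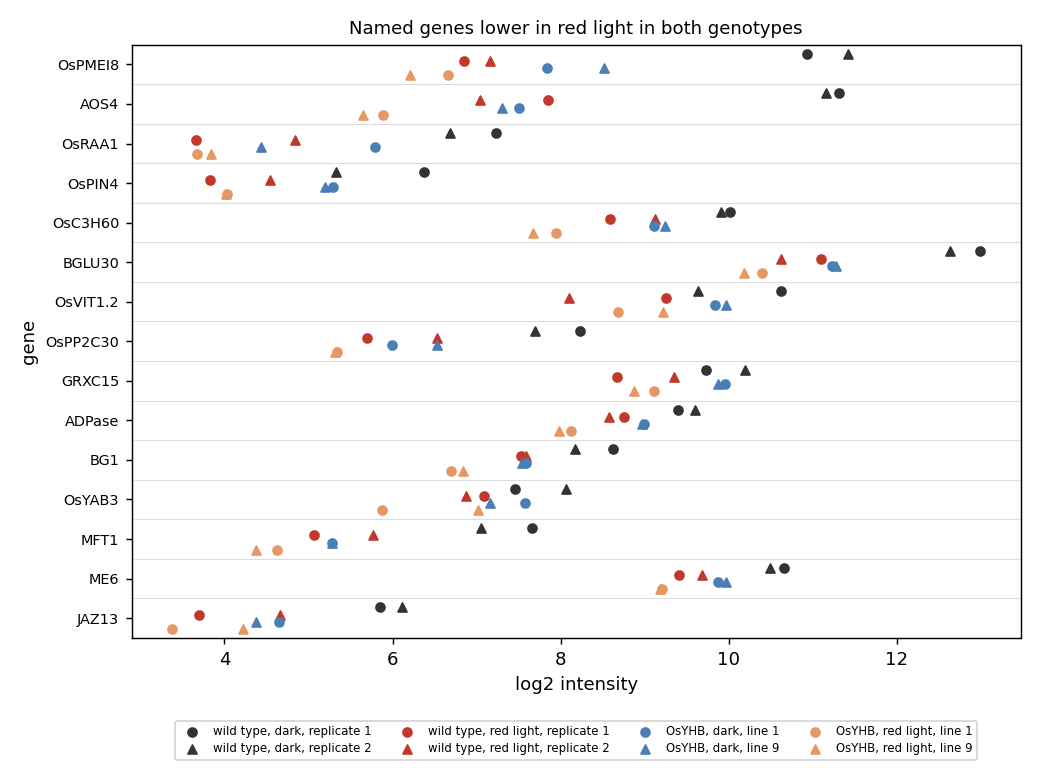
Log2 intensity on the horizontal axis of the 15 named genes lower in red light, with 1 symbol per array. In AOS4 and OsPMEI8 the wild-type dark arrays stand alone above 10.9, while the OsYHB dark arrays of GRXC15 lie among the wild-type dark arrays.

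The level in OsYHB darkness was set beside the wild-type levels, to ask where the genes stood when the active receptor was present without light. This comparison shares the dark arrays with the rule and is a description. Over all eligible genes the median difference of OsYHB from wild type in darkness was -0.17 on the log2 scale. Of the 214 higher genes, 147 had an OsYHB dark mean between the wild-type dark and red light means (68.7%, beside 27.6% of all eligible genes), 65 had one below both (30.4%, beside 50.1%) and 2 above both (0.935%, beside 22.3%). At least 0.7 above wild type in darkness, with no overlap, were 72 of the 214 (33.6%, beside 8.78% of all eligible genes), and at least 0.7 below were 9 (4.21%, beside 9.5%). Of the 107 lower genes, 97 had an OsYHB dark mean between the wild-type means (90.7%), and 59 (55.1%, beside 9.5% of all eligible genes) were at least 0.7 below wild type in darkness with no overlap. In red light 24 of the 107 (22.4%, beside 1.11%) were at least 0.7 below wild type, while of the 214 higher genes 2 were above (beside 0.342%) and 9 below. Among the 1301 genes higher in wild type alone, 81.9% were at least 0.7 above wild type in OsYHB darkness with no overlap. Of these 1301, 529 (40.7%) had an OsYHB dark mean between the wild-type means and 736 (56.6%) had one above both. Among the 1017 genes lower in wild type alone, 82.6% were at least 0.7 below wild type in darkness with no overlap. Of these 1017, 458 (45%) had an OsYHB dark mean between the wild-type means and 555 (54.6%) had one below both. The rules that chose these sets used the same arrays, so the shares are set side by side without a test. Meeting the rule puts the wild-type means at least 0.7 apart, which most eligible genes do not have. It also puts OsYHB darkness at least 0.7 from OsYHB red light. The shares of all eligible genes between, above or below the wild-type means are thus no like comparison.

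The difference between genotypes averaged over darkness and red light was tested, since it is orthogonal to both light differences that the rule used. The rule's demand for no overlap also depends on the spread within groups, which enters the limma standard errors. The shares of members called are therefore not free of the selection. The OsYHB arrays came from 2 lines, each in both conditions, and the fit treated all arrays as independent, with no term for line. A line difference shared by both conditions can thus make the standard errors too small, and the genotype calls rest on 2 lines. In the limma fit over all 57258 probe sets, OsYHB was higher for 33 of the 214 higher genes (15.4%, beside 7.81% of all genes called higher) and lower for 5 (2.34%, beside 9.39%). The count of 33 was 20 without wild-type red light replicate 1, 18 without replicate 2, 17 without the line 9 dark array and 20 without the line 9 red light array. With 16 units added before the log2 step it was 16. The median difference of the 214 was 0.15 on the log2 scale, against -0.09 over all eligible genes. Taken apart as a description, it was 0.34 in darkness and -0.06 in red light, so a higher average need not hold in both conditions. Of the 107 lower genes 55 (51.4%) were called lower in OsYHB, with a median of -0.66, and 0 were called higher by limma, also at an unadjusted p under 0.05. Among the 1301 genes higher in wild type alone 68.4% were called higher, with a median of 0.67, and among the 1017 lower in wild type alone 62.5% were called lower, with a median of -0.58.

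Among named higher genes, 6 of 37 were called higher in OsYHB averaged over light, beside 15.4% of all 214 higher genes and 7.81% of all genes. For MtN3-like, CM-LOX1, Cht11 and AMT1 the arrays of the genotypes overlapped in red light and did not overlap in darkness. MtN3-like was higher by 0.65 (SE 0.12, limma adjusted p = 0.0134), BGLU36, the galactolipid enzyme gene known as SFR2, by 0.41 (SE 0.08, adjusted p = 0.0177), and CM-LOX1 by 1.51 (SE 0.34, adjusted p = 0.0292). The other BGLU36 probe sets had light responses of 1.25 and 2.51 in wild type but 0.17 and 0.23 in OsYHB, and did not meet the rule. Cht11 was higher by 1.29 (adjusted p = 0.0367), ALN by 0.78 (0.0379) and AMT1 by 0.64 (0.0479). Each of these 6 lost its call in at least 1 fit without an array. With 16 units added before the log2 step, CM-LOX1 was 0.83 (adjusted p = 0.172), and Cht11, ALN and AMT1 also lost their calls, with adjusted p of 0.113, 0.072 and 0.081. For ALN, AMT1 and Cht11 the fit with replicate as a block gave adjusted p of 0.0568, 0.0723 and 0.0566. COPT1 was the named higher gene called lower in OsYHB, with a difference of -1.50 (SE 0.18, adjusted p = 0.00224), and it kept its call in every fit run.

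None of the 6 phytoalexin genes was called, nor were PBZ1 and Cht2. CPS2 differed between genotypes by -0.45 (SE 0.84), CYP71Z7 by -0.74 (SE 0.79), CYP701A8 by -1.50 (SE 0.76) and PBZ1 by -0.39 (SE 0.72), with limma adjusted p from 0.25 to 0.78. These standard errors hold the spread between the lines in red light. CPS4, at -0.07 (SE 0.61, adjusted p = 0.96), was 0.79 (adjusted p = 0.0419) without the line 1 red light array and -0.93 (adjusted p = 0.0205) without the line 9 one. Without the line 9 red light array CYP701A8, PBZ1, Cht2 and CM-LOX2 were called lower in OsYHB, and in all 18 of the 214 higher genes were called lower instead of 5.

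Among named lower genes, 10 of 15 were called lower in OsYHB averaged over light, beside 51.4% of all 107 lower genes and 9.39% of all genes. The difference, OsYHB minus wild type, was -2.75 for AOS4 (SE 0.17, limma adjusted p = 0.00019), -1.79 for OsPMEI8 (SE 0.19, adjusted p = 0.0012), and -1.50 for MFT1 (SE 0.18, adjusted p = 0.00224). OsPP2C30 (-1.25), BGLU30 (-1.07), JAZ13 (-0.93), OsC3H60 (-0.91) and BG1 (-0.81) followed. JAZ13 (adjusted p = 0.0485) lost its call in 6 of the 8 fits without an array and with quantile normalization or with 16 units added. GRXC15 (-0.03), OsVIT1.2 (0.02), OsPIN4 (-0.38), OsYAB3 (-0.46) and OsRAA1 (-1.17) were not called. OsRAA1 was called without OsYHB dark replicate 1 and when dim probe sets were left out, and OsPIN4 without wild-type dark replicate 2.

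**Figure D5:**
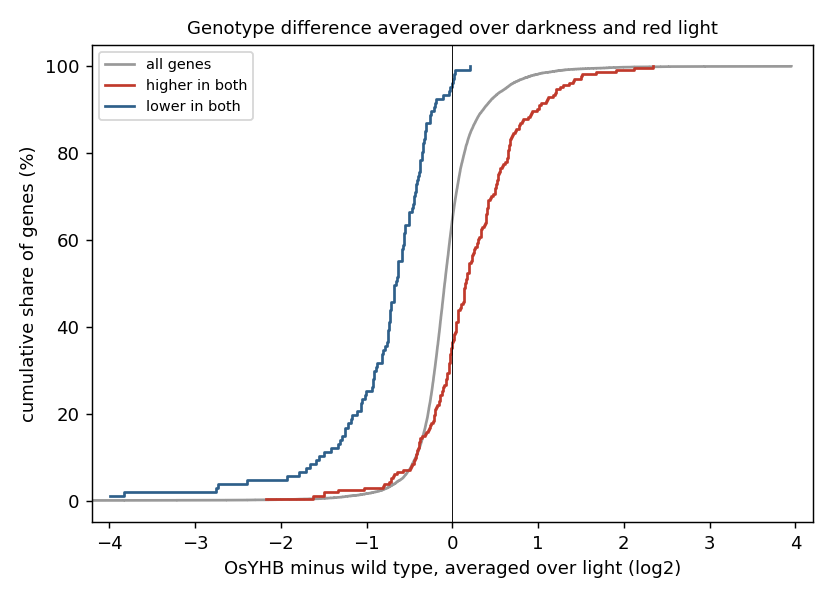
Cumulative share of genes, in percent, against the OsYHB minus wild type difference averaged over light, in log2 units, for all eligible genes and for the 2 sets. The curve of the 107 lower genes lies to the left, with a median of -0.66, and that of the 214 higher genes a little to the right of all genes, with medians of 0.15 and -0.09.

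Lists of genes from the known light programme were examined as well. Across 10 lists with 170 genes, covering photosynthesis, pigment synthesis, nitrogen, clock, light signalling, auxin, wall loosening and dehydration genes, limma called 41 genes higher (24.1%, beside 8.98% of all genes) and 25 lower (14.7%, beside 8.13%) in wild-type red light, and 0 in either direction in OsYHB. Of the 170 genes 3 were members (1.76%), a share near the 1.8% of all eligible genes. They lay in 2 lists, AMT1 and AMT3-3 in the nitrogen list and OsPIN4 in the auxin list. In the photosynthetic light reaction list 8 of 9 genes rose in wild type, with a median of 1.38, beside a median of -0.10 over all genes. In OsYHB its median was 0.01, beside 0.05 over all genes. In the chlorophyll synthesis list 6 of 10 rose in wild type, and the medians were 0.63 in wild type and 0.10 in OsYHB. The carotenoid list had 6 of 9 and medians of 0.68 and 0.08, the carbon fixation and photorespiration list 4 of 8 and 0.71 and -0.05, and the clock list 3 of 7 and 0.44 and 0.18.

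Of 17 genes in the nitrogen list 7 rose in wild type. Those outside the rule included NIA1, a nitrate reductase gene, at 2.89 in wild type and -0.31 in OsYHB, and AMT2-1 at 2.05 and -0.10. The gene of the list that fell, listed as GL2, entered it by a shared synonym. In the auxin list 3 of 66 rose (4.55%, beside 8.98% of all genes) and 20 fell (30.3%, beside 8.13%) in wild type, with medians of -0.26 and 0.03. In light signalling 4 of 8 rose and 1 fell, the phytochrome A gene PHY18 (PHYA), at -1.19 in wild type and -0.10 in OsYHB. Of the expansins and xyloglucan enzymes 2 of 30 fell (6.67%), a share near the 8.13% of all genes, and of the dehydration and late embryo genes 1 of 6.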

How the data were processed

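RNA of 8 samples was hybridised to Affymetrix arrays, with 2 arrays in each of 4 groups. The values are intensities on a linear scale that the authors had deposited after normalization. RMA, GCOS and limma were used, per the submitters' processing notes, with no version, role or order. Neither the background model nor the centring is given in the sources used here. Intensities were converted to log2 with no further normalization. Median intensities were 20.4 to 20.9, and replicate correlations 0.992 to 0.996. The number of arrays limits the precision.

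Of 57381 probe sets 123 controls were left out. GEO's platform annotation gave 1 gene for 22436 probe sets, several for 95 and none for 34727. The RefSeq gene table held each of the 17905 genes, of which 2457 carry a true gene name. With limma 3.58.1 (R 4.3.3), 4 group means were estimated from the 8 arrays, which left 4 degrees of freedom and added 4.27 from the prior. All tests are two-sided, and Benjamini-Hochberg adjustment ran over all probe sets, with calls at an adjusted p below 0.05. The fit was tested on simulated data. Tables and plots used pandas 2.3.3 and matplotlib 3.10.9 in Python 3.11.15.

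The members and lists were chosen with earlier results of these data known. Lists were matched by gene name. Named genes are the 25 named higher members with the largest smaller response and all named lower members (the limit there was 25), the 2 unnamed members a direction that lead the same order, list members, genes next to the thresholds, and the called named members with the largest genotype difference (up to 8 a direction). LOC4329723, NIA1, AMT2-1, PHY18, the peroxidase gene's identifier and the marker genes were named outside that order, after their values were seen. Replicate number stands for the transgenic line in both OsYHB groups, where the deviations from the group means had a correlation of 0.145. It was 0.0932 between the wild-type groups, where the labels state no pairing by number. Promoter motifs had been planned and were not analysed here. Alternatives were another normalization, offset, prior, filter, threshold, probe set rule, the block and leaving out each array.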

Additional observations from a re-analysis of the deposited data

How the results depend on the processing

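The number of genes higher in red light in both genotypes was 330 at a threshold of 0.5 and 114 at a threshold of 1, and the number lower was 235 and 38. Leaving out 1 array gave 139 to 321 higher and 93 to 134 lower genes, with 139 without the OsYHB red light array of line 9. With quantile normalization, gene values averaged over probe sets, an offset of 16, dim genes left out, overlapping arrays allowed, or without probe sets ending in _x_at or _s_at (an alternative chosen after seeing the data), the counts were 148 to 252 and 74 to 119. The genotype difference averaged over light was called higher for 16 of the higher genes instead of 33 with the offset of 16, and for 17 to 36 without 1 array. It was called lower for 3 to 18 of them instead of 5 without 1 array, the highest count without the line 9 red light array and 3 without wild-type red light replicate 2 or the line 9 dark array, and for 38 to 68 of the lower genes instead of 55. With replicate as a block these counts were 28, 5 and 55. The block ended the calls of ALN, AMT1 and Cht11 and no other call of a named member. The genotype difference of CPS4 turned to 0.79 without the line 1 red light array and was -0.93 without that of line 9. The list genes called in wild-type red light were 27 to 39 higher without 1 array instead of 41, and 16 to 28 lower instead of 25, the lowest of both without wild-type red light replicate 1. In OsYHB 0 list genes were called in every fit. The median OsYHB response of the lower genes was -0.99 in line 9 alone. The cause of these shifts was not tested. Having 2 arrays a group, and dim genes near background, limit all differences.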

Other observations

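Probe sets without a single gene in the annotation can meet the same thresholds. Of 34822 such probe sets 124 were higher and 59 were lower in red light in both genotypes, without overlap. They carry no gene name here and were not counted among the 321 genes.

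Other probe sets exist for 72 of the 321 genes, 90 in all. Of these 90, 65 had the direction of the member in both genotypes and 21 met the rule themselves. They share the RNA of the arrays and are no independent samples.

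The spread within the red light groups ran in opposite number order in the 2 genotypes. Across the 214 higher genes, the difference of wild-type red replicate 2 minus replicate 1 had a correlation of -0.472 with the difference of line 9 minus line 1 in OsYHB red light, beside -0.27 over all eligible genes. This is a correlation across genes of the same 4 arrays, and the labels state no pairing of the replicate numbers between genotypes. Genes with mean log2 intensity under 5 made up 30.4% of the higher and 13.1% of the lower genes, beside 18% of all eligible genes. In wild-type darkness alone the mean was under 5 for 121 of the 214 higher genes (56.5%). That share was 0.935% of the lower genes and 17.6% of all eligible genes. The rule used the dark arrays and puts them below red light in the higher genes and above it in the lower genes. The shares are thus a description and no like comparison. Among genes higher or lower in wild type alone they were 16.4% and 13.2%.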
